A study of Mus musculus with 10 samples.

Results

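The wild type (WT) mouse bladder was examined 24 h after a challenge with bacterial LPS or with substance P (SP), each against the WT bladder 24 h after saline. These are 3 of the 10 arrays of the study, 1 array for each condition. Of the 5030 probes in the table, the 4918 whose spot intensities could be recovered were compared on these 3 arrays. Each array holds the RNA of a pool of 8 bladders from female C57BL/6J mice that were anesthetized and instilled through the urethra with saline, with E. coli LPS at 100 µg/ml or with SP at 10 µM. Neither the labels nor the methods name an age for the mice. The other 7 arrays are WT bladders 4 h after LPS or SP and PAR1-/- bladders after saline, LPS or SP, with SP labelled as 20 µM in the PAR1-/- mice. No condition was repeated, so no difference below has a replicate error or a p-value, and a pool of whole bladders cannot tell fewer cells of a type from less RNA per cell.

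LPS is the outer membrane glycolipid of Gram-negative bacteria. It is bound by CD14 and by the complex of TLR4 with its co-receptor MD-2, the product of Ly96, and the signal passes through the adaptor MyD88 to NF-kappaB and the genes of inflammation. SP is a neuropeptide of sensory nerves, encoded by Tac1, that acts on the neurokinin receptors encoded by Tacr1, Tacr2 and Tacr3 and is known for plasma leakage and mast cell activation in the bladder. PAR1, encoded by F2r, is a receptor cleaved by thrombin, and the study asked which responses to these stimuli need it. The question here is which transcripts of the WT bladder stood apart from saline 1 day after either stimulus.

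At 24 h few genes stood more than 3-fold from saline after either stimulus. After LPS, 13 genes were higher, among them Adcy6, Foxn1, Acta2, Efna1, Ptpn22, Tac2 and Hk2, and 2 were lower. After SP, 15 genes were higher, 2 of them measured on both arrays (Ehd1 and Adcy6) and 13 bounds. Of the 15, 8 rest on the lowest value of the saline array. After SP 10 genes were lower, 4 of them measured on both arrays (Ppp1r17, Snap91, H2-Ab1 and Slc22a5) and 6 bounds. Adcy6 and Tac2 were beyond 3-fold after both stimuli, and both comparisons use the same saline array. Against the mean of the WT and PAR1-/- saline arrays the genes named for LPS with a measured ratio were under 3-fold. Tac2 was a bound, at least 2.84-fold higher. Of the 13, 3 (Zfp97, Fmo5 and the unnamed probe B10a5/b5) stayed above 3-fold. Of the 15 higher after SP, 3 stayed above 3-fold (Ehd1 and the unnamed probes M20a6/b6 and P20a7/b7), and Adcy6 was at 2.66-fold. The rest of the 15 were lower bounds under 3, which do not show a fold under 3.

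The 3 arrays differ in what they can show. Total intensity over the 4918 probes was 71762 on the saline array, 113091 on the LPS array and 73135 on the SP array. On the LPS array 4274 probes, 86.9%, hold the single value 15, 12 hold 9 and the next value in use is 29, so values at or under 15 were taken as unmeasured. That leaves 632 probes (12.9%) measured on the LPS array, against 1518 (30.9%) above the background limit of 12.4 on the saline array and 1462 (29.7%) above 12.1 on the SP array. Levels below are intensities, the recovered spot values of each array, and folds are ratios of intensities scaled to a common level by robust regression. Where 1 of the 2 arrays was at background, the fold is a bound against that array's limit, written as at least or at most.

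The reach of each comparison follows from these limits. For LPS, 619 probes were measured on both arrays and 13 gave a lower bound above 1, while 364 gave an upper bound and 535 could not be separated from saline. A 3-fold lower value after LPS could be seen only where the saline intensity was above 39.7, which held for 207 probes. For SP, 1140 probes were measured on both arrays, 322 gave a lower bound and 378 an upper bound, and a 3-fold lower value could be seen above a saline intensity of 29.9, which held for 334 probes.

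The markers that define the bladder did not stand out on these arrays. Of 36 probes for markers of urothelium, smooth muscle, fibroblasts, endothelium, nerve and leukocytes, 12 were above background on the saline array, 2 on the LPS array and 10 on the SP array. The uroplakin Upk2 was at 8 after saline and 9 after SP, the muscle myosin Myh11 at 11 and 9 and the collagen Col1a2 at 9 and 9, all at background. The 35 ribosomal protein probes had the median saline intensity of all probes, 11, and 28.6% of them were above background, against 30.9% of all probes. The brightest named probes after saline were Fem1a at 247, Snap91 at 240, B9d1 at 207 and Cbx2 at 174. Of 34 pairs of probes for the same gene, 5 had both and 22 had only 1 probe above background on the saline array. So the labelled tissue could not be checked by its own markers. The gene names are those given with the probes, whether each name belongs to its probe could not be checked here, and every value of a named gene below holds only if that pairing is right.

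A pair of saline arrays gives the only scale for differences without a stimulus, and these come from mice of different genotype. Over the 564 probes measured on the 4 arrays, log2 differences from WT saline had an SD of 0.57 for PAR1-/- saline, 0.60 for LPS and 0.56 for SP. Differences beyond 3-fold were seen for 8 of these probes on the PAR1-/- saline array, 12 on the LPS array and 6 on the SP array. Beyond 2-fold there were 37, 53 and 39 probes. Thus by the SD over these probes both stimulated WT arrays lay about as far from WT saline at 24 h as the unstimulated PAR1-/- array did. More probes were beyond 2-fold after LPS. Over all probes measured on each pair of arrays the SD was 0.47 for PAR1-/- saline (1222 probes), 0.60 for LPS (619) and 0.48 for SP (1140). At 4 h the SD was 0.87 for LPS over 1139 probes and 0.84 for SP over 1260 probes, each against the same 24 h saline array, as no 4 h saline array is in the series.

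**Figure D1:**
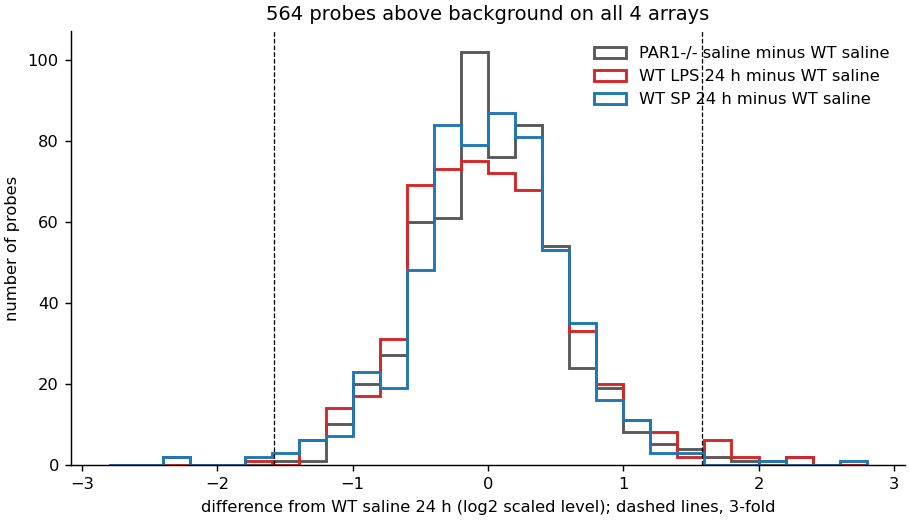
Number of probes (y axis) by difference from WT saline 24 h in log2 scaled level (x axis) for PAR1-/- saline, WT LPS 24 h and WT SP 24 h over the 564 probes above background on the 4 arrays. The 3 outlines overlap over most of their range, with SDs of 0.57, 0.60 and 0.56, and few probes pass the dashed lines at 3-fold.

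After LPS, 13 of 1526 genes measured on at least 1 of the 2 arrays lay more than 3-fold above the saline level (0.852%), and 2 were more than 3-fold lower (0.131%). The genes counted include the 535 probes that could not be separated from saline, and a 3-fold fall could be seen for only 207 probes. At 2-fold the counts were 41 higher (2.69%) and 34 lower (2.23%). Of the 13 higher genes 12 were measured on both arrays and Tac2 was a bound, and 2 are probes with no gene name. The median fold over the 619 probes measured on both arrays was 1.00.

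Adcy6 had the highest fold after LPS and was also called after SP. It encodes an adenylyl cyclase that makes cyclic AMP and lies at chr15:98589978-98610287 (GRCm38.p6, as for all positions here). It was at an intensity of 16 after saline, 119 after LPS and 57 after SP, which is 4.90-fold and 4.53-fold higher. Ptpn22, a tyrosine phosphatase that restrains antigen receptor signalling in lymphocytes, was at 35, 202 and 88, or 3.47-fold higher after LPS and 2.98-fold higher after SP, just under the threshold. Both genes were above the WT saline level on both stimulated arrays. The PAR1-/- saline level of Ptpn22 was higher than either, 368 on the common scale against 258 after LPS and 221 after SP, and its fold after LPS against the mean of both saline arrays was 1.56. Efna1, an ephrin ligand of Eph receptors, was at 18, 102 and 26 and 3.57-fold higher after LPS. Dok1, an adaptor that damps tyrosine kinase signalling, was at 15, 75 and 30, or 3.14-fold higher after LPS and 2.27-fold higher after SP.

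Tac2 (chr10:127724478-127731768) encodes neurokinin B, a tachykinin peptide of the same family as SP. It was at background after saline, with an intensity of 12, and at 66 after LPS and 33 after SP, at least 3.42-fold and at least 3.20-fold higher. On the common scale its level was 218 and 117 on the WT arrays 4 h after LPS and SP, 72.9 and 68.2 at 24 h, and 30.8 after saline in PAR1-/- mice. So the 24 h levels lay between those at 4 h and both saline levels.

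Acta2 (chr19:34240336-34255585), the smooth muscle actin, was the muscle gene among the higher transcripts. Its intensity was 23 after saline, 136 after LPS and 44 after SP, or 3.68-fold and 2.15-fold higher, and it was 112 after saline in PAR1-/- mice. Other smooth muscle markers could not be measured after LPS. Actg2, Cnn1, Myh11 and Tagln were at intensities of 11 to 14 after saline and at 15, unmeasured, after LPS. The PAR1-/- saline array thus held more Acta2 signal than the WT saline array, on the common scale 376 against 44.9.

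Transcription factors and metabolic enzymes completed the named genes. Foxn1 (chr11:78357577-78386783), a forkhead factor known for thymus and hair epithelium, was at 13, 92 and 14 after saline, LPS and SP, and 4.70-fold higher after LPS. Six6, a homeobox factor of eye development, was at 29, 149 and 20 and 3.09-fold higher after LPS, the value nearest to the threshold. Zfp97, a zinc finger gene, was at 14, 75 and 18 and 3.41-fold higher after LPS. Among the 3 arrays these 3 genes were high on the LPS array alone. On the common scale Foxn1 was at 106 after LPS and at 110 after saline in PAR1-/- mice. For Six6 these levels were 183 and 81.3, and for Zfp97 84.3 and 23.6. On the WT array 4 h after SP Zfp97 was at 219. Hk2, the hexokinase that starts glucose breakdown in muscle and in growing cells, was at 36, 201 and 33 and 3.34-fold higher after LPS. Fmo5, a flavin monooxygenase, was at 14 after saline, 72 after LPS and 11, at background, after SP, and was 3.26-fold higher after LPS. The unnamed probes A02c1/d1, at 17, 107 and 24, and B10a5/b5, at 17, 90 and 22, were 4.04-fold and 3.32-fold higher after LPS. The gene just outside the threshold was Nxf1, an mRNA export factor, at 2.95-fold.

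The 2 lower transcripts after LPS were Irx3 and an unnamed probe. Irx3, an Iroquois homeobox factor, was at 50 after saline, unmeasured at 15 after LPS and at 64 after SP, which is at most 0.252 of the saline level after LPS. The unnamed probe D11c4/d4 was at 55, 37 and 72, or 0.296 of saline after LPS, and at 22 after saline in PAR1-/- mice. Strap, a splicing and translation cofactor, lay just outside at 0.352.

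The other bounds after LPS were under 3-fold. Of the 13 lower bounds the highest after Tac2 were those of the ribosomal protein Rpsa and of Srpk1, a kinase of splicing factors, which was at 11 after saline and 52 after LPS, at least 2.61-fold higher. Poll and Kcnk7 were at least 1.83-fold higher, Plek2 at least 1.78-fold, Vps45 at least 1.72-fold and the unnamed probe L22c6/d6 at least 1.56-fold. Casp1, the protease that matures interleukin-1 beta, and Got2, Col6a1 and Hpgd were at 31 after LPS, at least 1.46-fold higher. These values lie close to the lowest measured intensity of the LPS array, 29. Among the upper bounds Mcrs1 was at most 0.374 of saline, Scamp4 at most 0.401 and Tsnax at most 0.431.

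**Figure D2:**
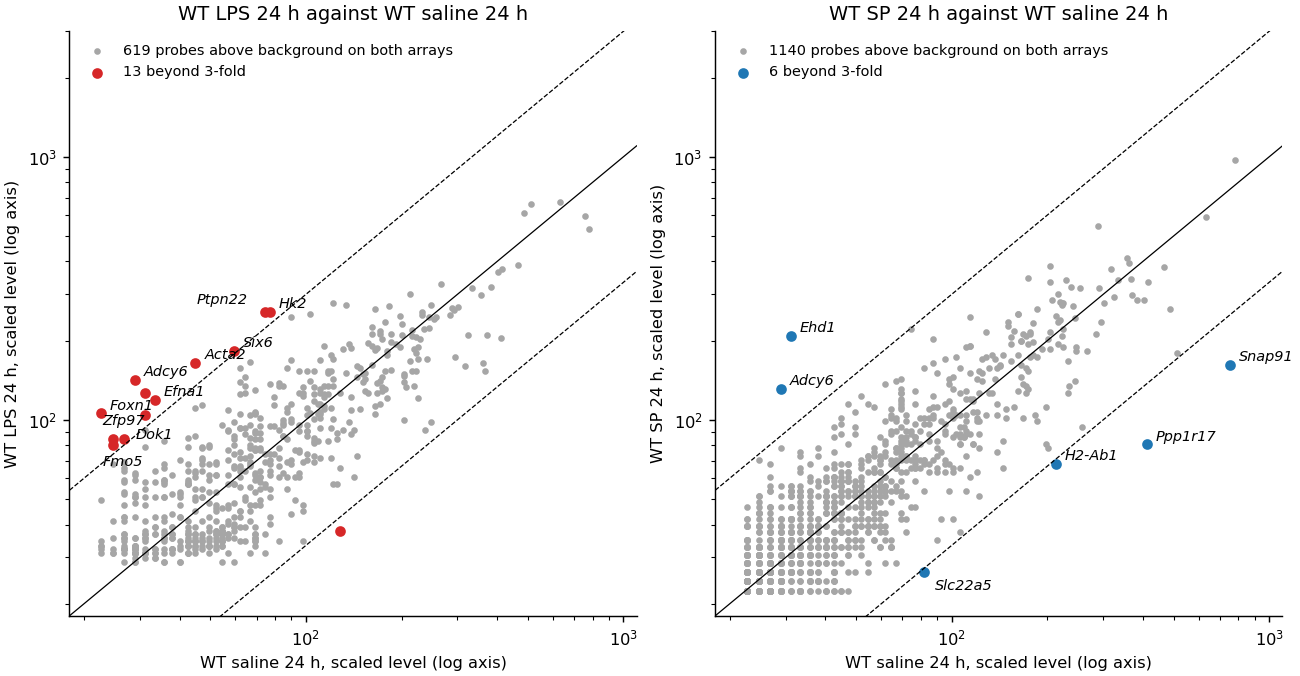
Scaled level on WT saline 24 h (x axis, log) against WT LPS 24 h (left) and WT SP 24 h (right, y axes, log), 1 point per probe above background on both arrays, with equality as a solid line and 3-fold as dashed lines. Of 619 probes 13 lie beyond 3-fold after LPS, 12 of them above, and of 1140 probes 6 lie beyond 3-fold after SP, 2 above and 4 below.

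After SP, 15 of 1831 genes were more than 3-fold higher (0.819%) and 10 more than 3-fold lower (0.546%), and at 2-fold the counts were 47 (2.57%) and 35 (1.91%). Of the 15 higher genes 2 were measured on both arrays and 13 were bounds against a saline value at background. The median fold over the 1140 probes measured on both arrays was 1.03.

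Ehd1 (chr19:6276896-6300096), which recycles receptors from endosomes to the cell surface, was the highest of the probes measured on both arrays. Its spots read 17 after saline, 84 after SP and 45 after LPS, or 6.71-fold and 1.52-fold higher. Among the bounds, Ly96 (MD-2) was at background after saline with 11, at 46 after SP and unmeasured after LPS, and so at least 4.76-fold higher after SP. Ly96 was at 30 after saline in PAR1-/- mice, above that array's background limit of 11.7. Crkl, an adaptor of tyrosine kinase signalling, was at 8 after saline and 32 after SP, at least 3.08-fold higher. Keap1, the sensor that holds the antioxidant factor NRF2 in check, was at 10 after saline and 42 after SP, at least 4.27-fold higher, and at 9, the lowest value of that array, after LPS.

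The largest bound belongs to a probe with no gene name. Probe P20a7/b7 was at 11 after saline and at 309 after SP, the highest value on that array, so at least 46.9-fold higher. On the 9 other arrays it was between 11 and 26, also 4 h after SP in WT mice and 24 h after SP in PAR1-/- mice. The high value was thus seen on 1 array only.

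A further 8 of the 15 higher calls after SP rest on 1 repeated low value. On the WT saline array 13 probes hold the value 6, the lowest in use there, and 11 of these hold 9, also the lowest value, on the WT LPS 24 h array. Among them are Sufu, Ajuba, Il17a, Cdh17, Olfr69, Cks1b, Traf5 and the unnamed probe M20a6/b6, all beyond 3-fold after SP. Their intensities on the SP array were 39 to 57, and Sufu, an inhibitor of hedgehog signalling, went from 6 after saline to 57 after SP and was at 44 after saline in PAR1-/- mice. Il17a, the cytokine of Th17 cells, was at 6 after saline, 46 after SP and 50 after saline in PAR1-/- mice. The saline and LPS arrays thus share 11 of the probes at these values, and with probes at the lowest value of either array left out 7 genes were higher after SP instead of 15.

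Repeated low values also touch the lower calls after SP. On the WT SP 24 h array 10 probes hold its lowest value of 6, and 9 of these hold 7, the lowest value of the PAR1-/- SP 24 h array. They include 4 of the 10 lower calls, Cdkn2c, Naglu, Shoc2 and the unnamed probe P18a5/b5, with saline intensities of 30 to 35. Cdkn2c, an inhibitor of the cell cycle kinases CDK4 and CDK6, was at 34 after saline, 6 after SP and 79 after LPS. Without such probes 6 genes were lower. These still include Strap and Rdx, which were at background on both SP 24 h arrays, though not at the lowest value. On the arrays at 4 h no probe with a median intensity above 25 over the 10 arrays holds the lowest value. The part of these values in the calls was not tested beyond leaving them out.

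**Figure D3:**
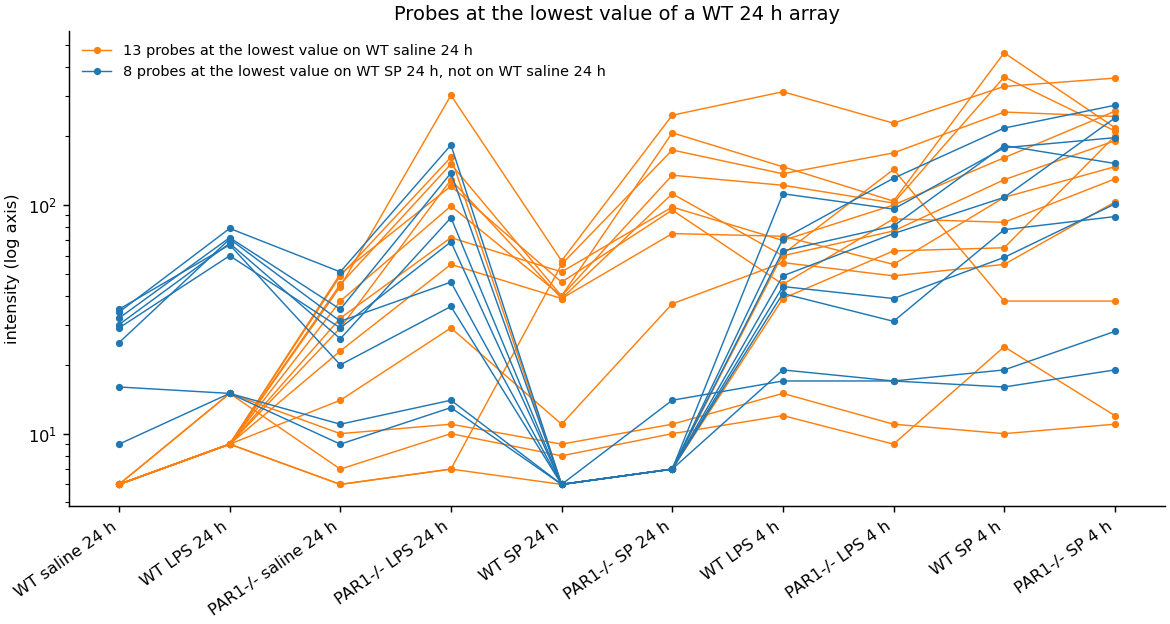
Intensity (y axis, log) on the 10 arrays (x axis) of the probes at the lowest value of the WT saline 24 h array (orange, 13 probes) or of the WT SP 24 h array but not of saline (blue, 8 probes), with lines joining the values of 1 probe. The orange probes are low on both WT saline and WT LPS 24 h, and the blue ones are low on WT and PAR1-/- SP 24 h, while most are bright on other arrays.

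The 4 lower genes measured on both arrays after SP were well above background after saline. Ppp1r17 (chr6:56017497-56032689), an inhibitor of protein phosphatase 2A known from the cerebellum, was at 145 after saline, 38 after SP and 165 after LPS, or 0.196 of saline after SP and 0.499 after LPS. Snap91 (chr9:86765923-86880734), a clathrin coat protein of synapses, was at 240, 68 and 423 after saline, SP and LPS, or 0.215 and 0.789. Both were also bright after saline in PAR1-/- mice, with 155 and 309, so the SP array stood below both saline arrays. H2-Ab1, the beta chain of an MHC class II molecule that presents antigen, was at 84, 33 and 138, or 0.320 after SP and 0.787 after LPS. Slc22a5, the carnitine transporter, was at 38, 15 and 113, or 0.322 after SP and 1.63-fold higher after LPS. The remaining 2 lower genes were bounds: Strap was at 44 after saline and 8 after SP, at most 0.209, and Rdx, which links membranes to actin, was at 32 and 8, at most 0.307. On the PAR1-/- SP 24 h array both were at 11, under its limit of 18.9, and on all other arrays both were above background. Their low values are thus shared by the SP 24 h arrays of both genotypes. Outside the threshold Snap23, at the lowest value after SP, was at most 0.346 and the tight junction gene Cldn14 at most 0.394.

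**Figure D4:**
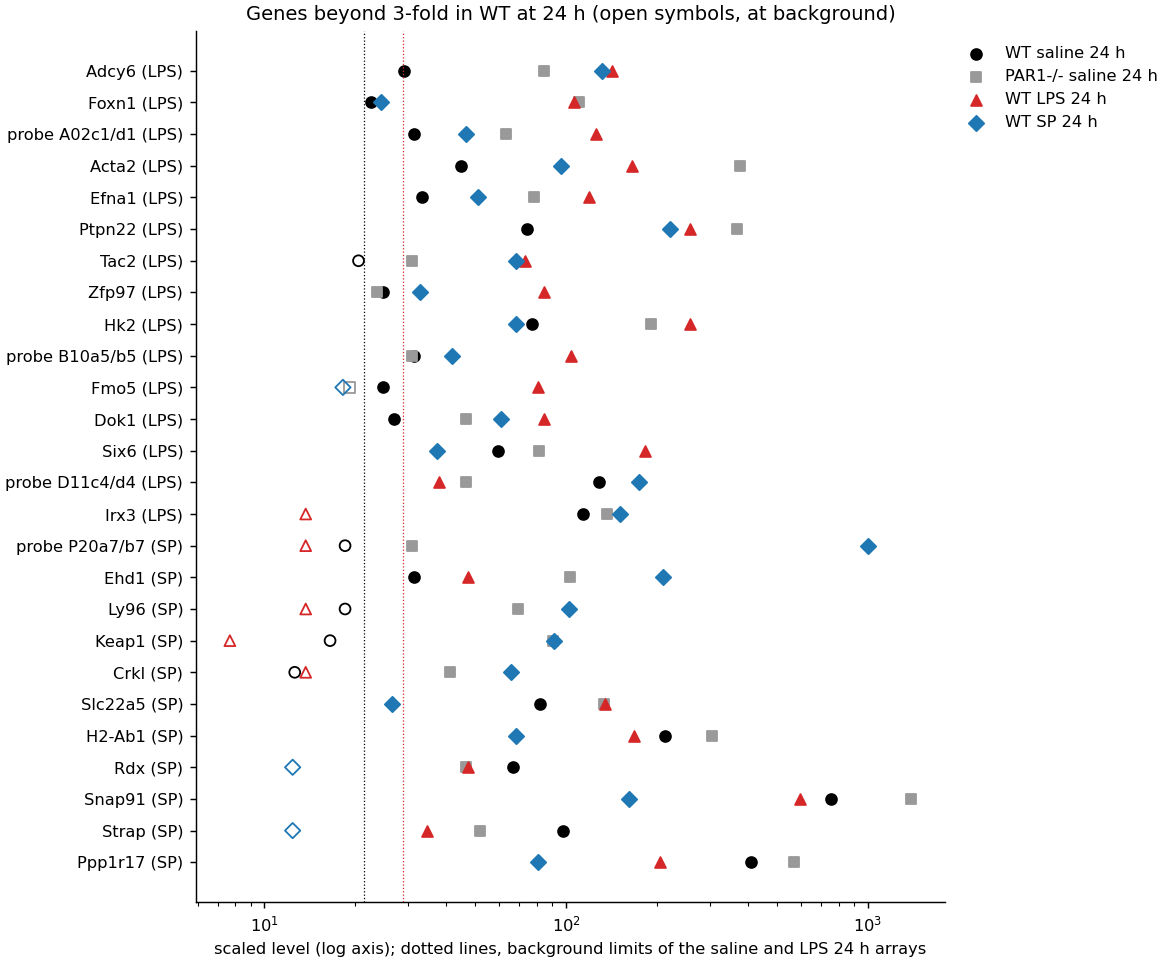
Scaled level (x axis, log) on WT saline, PAR1-/- saline, WT LPS and WT SP arrays at 24 h of each gene beyond 3-fold in WT, leaving out calls at an array's lowest value, with the comparison that called it in brackets and open symbols at background. For 10 of the 13 genes higher after LPS the PAR1-/- saline level lies above the WT saline level, which is part of the rule that called them.

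The WT saline array is the denominator of every call, and the PAR1-/- saline array is the only other one to set beside it. Of the 13 genes higher after LPS 10 had a higher scaled level on the PAR1-/- saline array than on the WT saline array, and of the 15 higher after SP 14 did. So did 6 of the 10 lower after SP. These levels include values at background. The WT saline value is part of the rule that called these genes, so the counts are no independent evidence about that array. Over the 1222 probes measured on both saline arrays the median log2 difference was -0.02. Against the mean of both saline arrays 7 genes were more than 3-fold higher after LPS, of which 3 were among the 13. These are Zfp97, Fmo5 and the unnamed probe B10a5/b5, with Fmo5 a bound. After SP 3 of the 15 remained above 3-fold, namely Ehd1 at 3.69-fold, and M20a6/b6 and P20a7/b7 as bounds. Adcy6 aside, the others were bounds of at least 1.72-fold to at least 2.87-fold, which do not show a fold under 3. Tac2 was likewise a bound after LPS, at least 2.84-fold higher. Against this mean Adcy6 was 2.87-fold higher after LPS and 2.66-fold after SP, while Acta2 was 1.27-fold higher after LPS. The 4 lower genes measured on both arrays after SP stayed lower, at 0.167 for Ppp1r17, 0.159 for Snap91, 0.268 for H2-Ab1 and 0.253 for Slc22a5.

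Promoters are shown for 2 of the genes higher after LPS that have an entry in the RefSeq promoter table, Tac2, higher after both stimuli, and Six6, which holds a motif match. Each is the 250 bases before the start in build GRCm38.p6: chr10:127724228-127724477 and chr12:72939632-72939881, both on the plus strand. Capitals mark the only match to any of 4 motifs searched on both strands: AP-1 (TGANTCA), CRE (TGACGTCA), the NF-kappaB consensus and the CArG box.
Tac2: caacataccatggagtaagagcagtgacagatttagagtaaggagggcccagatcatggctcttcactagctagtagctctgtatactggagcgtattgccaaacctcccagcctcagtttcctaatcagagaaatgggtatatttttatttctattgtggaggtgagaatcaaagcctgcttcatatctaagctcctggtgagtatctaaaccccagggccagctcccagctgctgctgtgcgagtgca
Six6: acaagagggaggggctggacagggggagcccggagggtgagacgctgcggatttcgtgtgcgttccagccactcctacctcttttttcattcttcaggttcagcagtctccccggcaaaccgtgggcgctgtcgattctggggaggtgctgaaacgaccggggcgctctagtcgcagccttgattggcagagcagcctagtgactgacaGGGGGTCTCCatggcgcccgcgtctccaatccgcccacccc
The match in Six6 is to the NF-kappaB consensus, 41 to 32 bases before the start. Of 11 named genes higher after LPS 9 had a promoter in the table, and Six6 was the only one with a match to the NF-kappaB consensus, which 7.25% of 32851 mouse promoters hold. None of the 9 held AP-1, CRE or CArG box letters, against 6.75%, 1.55% and 1.47% of all promoters. Of 9 matched promoters of genes higher after SP, 1 each held an AP-1 (Il17a), a CRE (Crkl) and an NF-kappaB match (Sufu). These are matches of letters and say nothing about binding.

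The receptors of the stimuli that had a probe were mostly at background. Cd14, F2r, F2rl2, F2rl3, Tac1, Tacr1 and Tacr2 were at intensities of 8 to 11 after saline and 7 to 11 after SP, at or under the limits of both arrays, and at 15, unmeasured, after LPS. No change in these genes could be measured. Of the 19 probes of the list of LPS, SP and PAR sensing, 6 were above background after saline, 3 after LPS and 8 after SP, and its called genes were Tac2 after LPS and Tac2 and Ly96 after SP. Myd88, the adaptor of TLR4, was at 41, 88 and 19 after saline, LPS and SP, 1.12-fold of saline after LPS and 0.391 after SP. F2, prothrombin, the precursor of the protease that cleaves PAR1, was at 35 after saline, unmeasured after LPS (at most 0.387) and 34 after SP.

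Few acute inflammatory genes could be measured after LPS, and none of those was beyond 3-fold, a count that at 0.852% called over all genes says nothing particular about them. Of 31 probes for NF-kappaB and acute cytokine genes 8 were above background after saline and 2 after LPS, and none of them was beyond 2-fold after LPS. Tnf was at 45, 67 and 22 after saline, LPS and SP, or 0.737 and 0.417 of saline. Of 41 probes for chemokines and their receptors, 5 were measured on both arrays for LPS, with a median fold of 0.738, and 10 for SP, with a median of 0.841, against 1.00 and 1.03 over all probes. The log2 median of the chemokine list relative to all probes after LPS was -0.44, and 0.09 against the mean of both saline arrays, so its direction depends on the saline array. The chemokine Ccl9 was the 1 member beyond 2-fold, at 38 after saline and 34 after LPS (0.420). Of 20 immediate early probes 1 was measured on both arrays for LPS and 7 for SP, with a median of 1.17, and none was beyond 2-fold. Ccn1, a matrix protein of early growth responses, was at 19, 35 and 19, or 0.999 and 0.986 of saline on the common scale.

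Genes of interferon, antigen presentation and complement gave few measured ratios. Of 34 interferon and antigen presentation probes 3 were measured on both arrays for LPS and 8 for SP, with medians of 0.865 and 0.870. Beside H2-Ab1, Ifnb1, interferon beta, was at 37 after saline and unmeasured after LPS, at most 0.362, and at 32 after SP. Ifnar1, a chain of its receptor, was at 14 after saline and 26 after SP, 2.07-fold higher. Of 27 complement and acute phase probes 2 were measured on both arrays for LPS, Masp1 at 1.12 and Apcs at 1.09, and none was beyond 2-fold after either stimulus.

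Leukocyte markers were largely unmeasured after LPS. Of 24 neutrophil and macrophage probes 7 were above background after saline, 2 after LPS and 7 after SP. Fcgr1, the high affinity IgG receptor of macrophages, was at 16, 58 and 18 after saline, LPS and SP, or 2.17-fold and 1.14-fold higher. Csf1r, the receptor of the macrophage growth factor, was lower on both stimulated arrays, at 31, unmeasured (at most 0.448) and 18 (0.513). The neutrophil protein S100a9 was at 19 after saline, unmeasured after LPS (at most 0.808) and at 20 after SP. S100a8 was at background after saline and SP and unmeasured after LPS. Of 27 lymphocyte probes 4 were measured on both arrays for LPS, with a median of 0.704, and 7 for SP, with a median of 0.831. Relative to all probes the log2 median after SP was -0.31, and 0.18 against the mean of both saline arrays. Beside Ptpn22 the granule protease Gzmb was at 42, 56 and 22, or 0.654 and 0.453.

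Of the 4 mast cell markers on the array Cpa3 alone was bright, and Cma1 was at 13 after saline. Of 16 probes of the mast cell list 4 were measured on both arrays for LPS, with a median fold of 1.51, and 6 for SP, with a median of 0.829. Cpa3, a mast cell carboxypeptidase, was at 146 after saline, 280 after LPS and 124 after SP, which on the common scale is 0.90 and 0.806 of saline. Gata2, a factor of mast cell and blood progenitors, was at 57, 212 and 73, 2.04-fold higher after LPS and 1.32-fold after SP. Fcer1a and Ms4a2, which encode chains of the IgE receptor, were at intensities of 8 to 10 after saline and SP, at background.

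Few tissue structure genes were measured on both arrays. Of 27 urothelium and epithelial probes 4 were measured on both arrays for LPS (median 1.02) and 6 for SP (median 0.986), none beyond 2-fold. The tight junction gene Cldn3 was at 0.964 of saline after LPS and 0.790 after SP, and E-cadherin, Cdh1, at 1.07 and 0.840. Of 28 fibroblast and matrix probes 4 and 8 were measured, with medians of 0.868 and 1.11. The matrix protein Fbln2 was at 97, 190 and 119 after saline, LPS and SP, or 0.950 and 1.25 of saline, and Tnc was at 0.792 and 1.41. Of 24 endothelial probes 4 were measured on both arrays in each comparison, with medians of 0.887 and 0.975, and Thbd, which turns thrombin into an activator of protein C, was at 0.498 after LPS. Of 16 smooth muscle probes 1, Acta2 at 3.68-fold, was measured on both arrays for LPS and 6 for SP, with a median of 1.21. Of 17 nerve and glia probes 1, the growth factor Gdnf at 0.481, was measured for LPS and 3 for SP, with a median of 1.17. Of 21 integrin and adhesion probes 3 and 5 were measured, with medians of 0.674 and 0.917 and none beyond 2-fold. Itgb7 was at 0.674 and 0.784 and Itgb3 at 0.537 and 0.817.

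Enzymes and stress genes had list medians above 1 after LPS. The 6 measured eicosanoid and phospholipase probes had a median of 1.36 after LPS, with 2 above 2-fold, and 9 had a median of 0.861 after SP. Pla2g4a, the phospholipase that frees arachidonic acid, was at 24, 98 and 13 after saline, LPS and SP, 2.41-fold higher after LPS and 0.472 after SP. Anxa5, a phospholipid-binding annexin, was at 19, 74 and 18, 2.33-fold higher after LPS and 0.924 after SP. Pla2g4a thus stood on opposite sides of saline after the 2 stimuli, a difference with no replicate. The 10 measured heat shock, oxidative and metal stress probes had a median of 1.33 after LPS, though the chaperone Hspd1, at 130 after saline and 136 after LPS, was at 0.458, and 15 had a median of 0.987 after SP. The 7 measured protease and plasminogen probes had a median of 1.29 after LPS and 10 had 0.946 after SP. Against the mean of both saline arrays the log2 median of the stress list after LPS, relative to all probes, fell from 0.41 to 0.11. That of the eicosanoid list went from 0.45 to 0.51 and that of the protease list from 0.37 to 0.47. Ctsk, a collagen-degrading cathepsin, was at 80, 169 and 37, 1.05-fold of saline after LPS and 0.389 after SP, and the protease inhibitor Timp1 was at 33, 79 and 61, 1.29-fold and 2.06-fold higher.

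The growth and patterning genes named here were picked as the members of their lists furthest from saline. Their distance from the list medians follows from that choice. The 5 measured cell cycle probes had a median of 1.24 after LPS and 10 had 0.885 after SP. Relative to all probes the log2 median of this list after LPS was 0.32. It was -0.1 against the mean of both saline arrays, so its direction depends on the saline array. Cdc25b, a phosphatase that opens mitosis, was at 15, 59 and 13 after saline, LPS and SP, 2.39-fold higher after LPS and 0.831 after SP, and the cyclin Ccnd2 was at 30, 34 and 16, or 0.558 and 0.463. Of the WNT, hedgehog and Notch probes 8 were measured for LPS and 11 for SP, with medians of 1.04 and 0.985. Sfrp1, a secreted WNT antagonist, was at 41, 194 and 35 and 2.74-fold higher after LPS, and the WNT receptor Fzd7 was at 47, 101 and 20 and at 0.353 after SP. The 7 measured phosphatase probes had a median of 1.33 after LPS and 8 had 1.21 after SP, where Ptpn6, a phosphatase of leukocytes, was 2.09-fold higher. The 12 and 16 measured homeobox and forkhead probes had medians of 1.06 and 0.929, and Hoxa10 was at 32, 90 and 16, or 1.55-fold and 0.428 of saline, and Pbx2 was at most 0.482 after SP.

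The remaining lists showed no member beyond 3-fold. Of 43 growth factor and receptor probes 1 was measured for LPS and 6 for SP (median 1.24), and of 42 TNF superfamily and apoptosis probes 3 and 8 were measured (medians 1.06 and 0.986), with none of either list beyond 2-fold. Egf was at 0.996 and 1.20 of saline after LPS and SP, the apoptosis gene Bad at 1.06 and 0.862 and the death receptor Fas at 1.19 and 1.08. Of 35 ribosomal protein probes 4 and 8 were measured, with medians of 0.850 and 1.03, while Rpsa was at background after saline and at 53 after LPS, at least 2.67-fold higher, and Rps4x was at most 0.448 after LPS. The genes that the study lists as dependent on PAR1 were chosen by the study on these samples, so their direction is no independent evidence. Of their 73 probes 13 were measured on both arrays for LPS (median 0.919) and 23 for SP (median 1.13). None was beyond 3-fold at 24 h, and 2 were above 2-fold after SP, Myadm at 2.37 and Fkbp1a at least 2.18. Over all genes 0.852% and 0.819% were more than 3-fold higher after LPS and SP, and 2.57% more than 2-fold higher after SP. So these counts say nothing particular about the list. The study asked for a ratio above 3 at 4 h or at 24 h, after LPS or SP and on its own scaling. The 24 h arrays alone therefore cannot retest its list. Myadm was at 26, 36 and 54 after saline, LPS and SP.

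**Figure D5:**
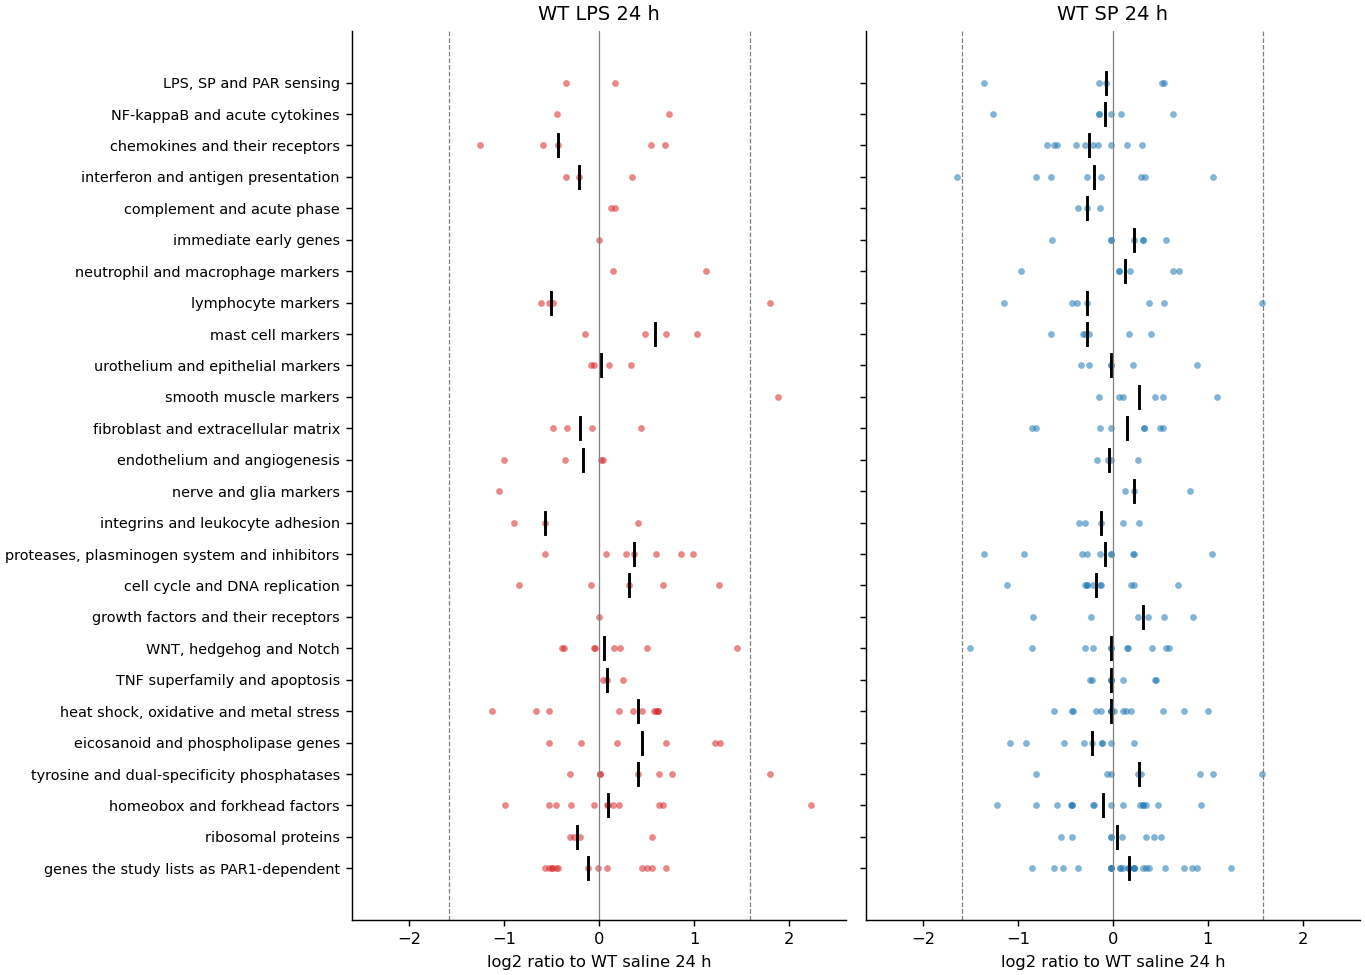
Log2 ratio to WT saline 24 h (x axis) of each list member measured on both arrays, by gene list (y axis), after LPS (left) and SP (right), 1 point per probe, with black bars at medians of lists with 3 or more points and dashed lines at 3-fold. Most members lie within 3-fold, and lists hold between 1 and 13 measured members after LPS and between 3 and 23 after SP.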

How the data were processed

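Radioactively labelled cDNA of each pool was hybridized to a Clontech Atlas 5K plastic array and spots were quantified in AtlasImage, as the methods state. The deposited values are scores: the log2 of each probe's values has a mean of 0 and an SD of 0.3333 to 0.3334 over the 10 arrays, so the authors standardized each probe, which the methods do not state, and the arrays were not normalized to each other. The design had assumed intensities. Whole-number intensities up to 3000 that give the 10 scores within 5.2e-05 were searched, which recovered 4918 of 5030 probes (97.8%), assuming the smallest such numbers. The other 112 were left out. Of the 4918 probes 4528 have 1 gene, 4 have several and 386 have none, and 4519 could be matched by Entrez ID to RefSeq (GRCm38.p6), which gave current symbols. No genome was used.

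The background limit was the mode of an array plus 3 SD of the values below it, and 29 on the LPS 24 h array. Arrays were scaled by robust regression (statsmodels 0.14.6) on the mean of the 10 arrays over 539 probes measured on every array. A gene was called beyond 3-fold, the methods' threshold, with each unnamed probe counted as a gene. With 1 array per condition no test was made. The number of arrays, the floor of the LPS 24 h array and the choice of scaling all limit precision. Recovery and ratios were tested on simulated data. Alternatives were other scalings, limits, folds and the mean of both saline arrays. Genes named are all with a measured ratio beyond 3-fold, the 12 highest and 8 lowest bounds of each comparison, 11 receptor and ligand genes, and up to 4 members of each list beyond 2-fold or else its 2 brightest; markers, probes at a lowest value, genes next to the threshold and the brightest probes are named in addition. The genes and lists were chosen with earlier results of these data known.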

Additional observations from a re-analysis of the deposited data

Results flagged for a closer look

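In 5 genes a WT 24 h array and the PAR1-/- array of the same stimulus stood on opposite sides of their own saline arrays, 1 beyond 3-fold and the other beyond 2-fold, among 948 probes with a ratio or bound in both genotypes for LPS and 1528 for SP. The difference was not tested, as each condition is 1 array. Ptpn22 was 3.47-fold higher after LPS in WT and at 0.480 of saline in PAR1-/-, with saline intensities of 35 and 110. Acta2 was 3.68-fold higher after LPS in WT and at 0.266 in PAR1-/-, and 2.15-fold higher after SP in WT and at 0.287 in PAR1-/-, with saline intensities of 23 and 112. Six6 was 3.09-fold higher after LPS in WT and at 0.411 in PAR1-/-, with saline intensities of 29 and 34. Cyp3a13, a drug-metabolizing enzyme, was 2.27-fold higher after LPS in WT and at 0.146 in PAR1-/-, with saline intensities of 31 and 66. Ly96 was at least 4.76-fold higher after SP in WT and at 0.454 in PAR1-/-, with saline intensities of 11 and 30. In each of the 5 genes the PAR1-/- saline intensity was the higher of the pair. Both saline values enter the rule that picked these genes. No gene was beyond 3-fold after one stimulus and beyond 2-fold the other way after the other in WT, among 990 probes with a value for both.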

How the results depend on the processing

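The 4 counts beyond 3-fold were 13 higher and 2 lower after LPS and 15 higher and 10 lower after SP. With no scaling they were 64 and 0 after LPS, where the median log2 difference was 0.95, and 3 genes were lower after SP. With regression on the saline array 8 were higher after LPS and 5 lower after SP. With a shift and no slope 6 were higher and 1 lower after LPS, and 3 lower after SP. At 2-fold the counts were 41, 34, 47 and 35. Against the mean of both saline arrays they were 7 and 1 after LPS and 3 higher after SP. With ratios measured on both arrays alone 1 was lower after LPS, and 2 were higher and 4 lower after SP. Leaving out probes at the lowest value of either array, chosen after seeing the data, left 7 higher and 6 lower after SP. A background limit at 2 SD and the 3 SD rule on the LPS array moved no count by more than 1.5 times. Of the list medians relative to all probes, those of chemokines after LPS (-0.44, and 0.09 against the mean of both saline arrays) and of lymphocyte markers after SP (-0.31, and 0.18) moved by more than the SD of 0.47 between the saline arrays, and no other did under the 4 settings tried. No called gene changed direction under them. The SD of 0.47 is that of single probes and does not measure the spread of a list median. Against the mean of both saline arrays the cell cycle median after LPS also changed sign, from 0.32 to -0.1. So did that of homeobox and forkhead factors after LPS, from 0.09 to -0.01. The cause of these shifts was not tested. No paired analysis was possible because each condition is 1 array. The floor of 15 on the LPS array limits what can be said of low genes there.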
